A study of Mus musculus with 4 samples.

Results

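The proteins of the cytosolic ribosome are encoded by a large set of short, strongly expressed genes. Such genes were taken from the deposited count table as protein coding rows with an Rpl or Rps symbol of the standard form, Rplp0 to Rplp2 and Rpsa, without pseudogenes and without the S6 kinases. The rule gave 82 of 56748 genes, of which 50 belong to the large (60S) and 32 to the small (40S) subunit. It leaves out ribosomal proteins with other symbols, such as Fau and Rack1, which are described separately. Measured RNA came from the lungs of female BALB/cJ mice that were 7 weeks old when 4T1-FLuc cells, a mouse triple negative breast cancer line carrying firefly luciferase, were injected into the tail vein. Control mice received saline, named PBS in one label field, in place of treatment (2 libraries). Treated mice received cmLumiOpto/PARPi for 3 weeks (2 libraries), that is mAb-Exo-AAV (antibody-coated, exosome-wrapped AAV against CD276) carrying cmLumiOpto, its luciferase substrate ViviRen, and olaparib, a PARP inhibitor, at a dose of 50 mg/kg. The controls carried the same tumour line and differed from the treated mice in every agent, so that the parts of the combination cannot be told apart. The methods call the material lung tissue with metastasis, whereas the sample labels call it tumour cells taken from the lungs. Each library was 1 of 2 in its group, and the precision of all comparisons below is set by that number.

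The library totals were 15263375 to 16755228 counts. Lists of 8 markers each were read in all libraries to see which cells contributed RNA, and no marker was at 0 in all 4 libraries. Markers of alveolar type 2 cells, which make surfactant, summed to between 521 and 1765 CPM (counts scaled to a library of 1e6) in saline and to between 3008 and 8254 CPM after treatment. Airway markers, led by the club cell gene Scgb1a1, summed to 90.2 to 1177 CPM and to 3086 to 5794 CPM. Lung epithelial markers were thus read in every library, although the labels name tumour cells, and their sums did not overlap between the groups. A list of 8 genes of the 4T1 epithelium summed to 2902 to 3335 CPM in saline and 2562 to 3735 CPM after treatment, and these ranges overlapped.

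Each ribosomal protein is present once per ribosome, except for the acidic stalk proteins P1 and P2, which are present in more than 1 copy. The genes are scattered over the genome, yet their products must be made in matching amounts. Many of their mRNAs begin with a C followed by a run of pyrimidines, the 5′ terminal oligopyrimidine (TOP) tract, through which the kinase complex mTORC1 and the RNA-binding protein LARP1 control their translation. Mammalian genomes also hold many processed pseudogenes of these genes, which are inserted copies of the spliced mRNA. Short reads from the parent gene can match such copies.

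The S27 family shows how close the copies can be, and bears on how its reads were divided. Rps27 lies at chr3:90212522-90213651 on the minus strand (GRCm38, GENCODE M21), its retrogene Rps27rt at chr9:114982366-114982739 on the minus strand, and the paralogue Rps27l at chr9:66946086-66949516 on the plus strand. Their coding sequences, without the stop codon, are 252 bases each and are given 5′ to 3′, with capitals in Rps27l at the bases that differ from Rps27.
Rps27: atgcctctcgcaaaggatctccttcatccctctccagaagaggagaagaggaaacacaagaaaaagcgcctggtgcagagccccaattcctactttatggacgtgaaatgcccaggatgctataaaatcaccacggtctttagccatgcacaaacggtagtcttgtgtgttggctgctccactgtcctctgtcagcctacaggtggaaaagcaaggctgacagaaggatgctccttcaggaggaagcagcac
Rps27rt: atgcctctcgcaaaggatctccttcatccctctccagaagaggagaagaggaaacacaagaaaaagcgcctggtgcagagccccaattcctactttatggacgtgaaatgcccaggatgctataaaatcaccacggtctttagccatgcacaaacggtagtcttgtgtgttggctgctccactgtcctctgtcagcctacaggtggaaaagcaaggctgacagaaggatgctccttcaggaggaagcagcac
Rps27l: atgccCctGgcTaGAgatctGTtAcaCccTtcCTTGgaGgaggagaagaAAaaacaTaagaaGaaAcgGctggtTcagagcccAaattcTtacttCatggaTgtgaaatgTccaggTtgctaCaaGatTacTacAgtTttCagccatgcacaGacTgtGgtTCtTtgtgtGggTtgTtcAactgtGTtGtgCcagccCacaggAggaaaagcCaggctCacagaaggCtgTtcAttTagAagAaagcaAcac
Rps27 and Rps27rt are identical over the whole stretch, whereas Rps27l differs from Rps27 at 60 bases (76.2% identity). Of the 100-base windows of the principal mRNA, 98.4% in Rps27 and 89.5% in Rps27rt were found letter for letter in the transcript of another gene, and 0% in Rps27l.

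Gene starts were read from the RefSeq promoter table (GRCm38.p6), which held 62 of the 82 genes, to show the TOP tract. The 30-base windows below hold 15 bases before the annotated start, so that the start is the 16th base. Capitals mark the longest run of C or T on the coding strand that comes within 5 bases of the start. The first 4 are from genes with long runs, and the last 4 from strongly expressed genes without one.
Rpl35a, chr16:33056467-33056496, plus strand: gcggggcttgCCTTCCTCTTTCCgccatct
Rps18, chr17:33955651-33955680, minus strand: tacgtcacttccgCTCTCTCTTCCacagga
Rps27, chr3:90213634-90213663, minus strand: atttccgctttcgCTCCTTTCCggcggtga
Rps6, chr4:86857353-86857382, minus strand: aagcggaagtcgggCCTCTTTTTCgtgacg
Rpl41, chr10:128549154-128549183, minus strand: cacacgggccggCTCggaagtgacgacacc
Rplp0, chr5:115559452-115559481, plus strand: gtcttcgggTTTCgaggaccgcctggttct
Rps4x, chrX:102189377-102189406, minus strand: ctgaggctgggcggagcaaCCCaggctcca
Rpsa, chr9:120127751-120127780, plus strand: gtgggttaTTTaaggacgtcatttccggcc
A C at the start followed by 4 bases that are each C or T was found in 14 of the 62 genes (22.6%), against 3.01% of the 27025 genes of the table. A run of at least 8 near the start was found in 23 of 62 (37.1%), against 11.4%. Annotated starts can lie some bases from the true start, so a missing run describes this window alone.

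Ribosomal protein genes took up a larger part of the library after treatment. Their share of all gene counts was 5.25% and 5.14% in saline and 6.34% and 6.94% after treatment. The means were 5.19% ± 0.08 and 6.64% ± 0.43 (SD, n = 2 each), a ratio of 1.28, and the groups did not overlap. An exact two-sided permutation test gave p = 0.333, the smallest value that 2 against 2 libraries allow. The large subunit genes went from 3.11% ± 0.03 to 3.94% ± 0.27 and the small subunit genes from 2.08% ± 0.05 to 2.70% ± 0.16. In bulk RNA a change in the number of cells of a type and a change in RNA per cell cannot be told apart.

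**Figure D1:**
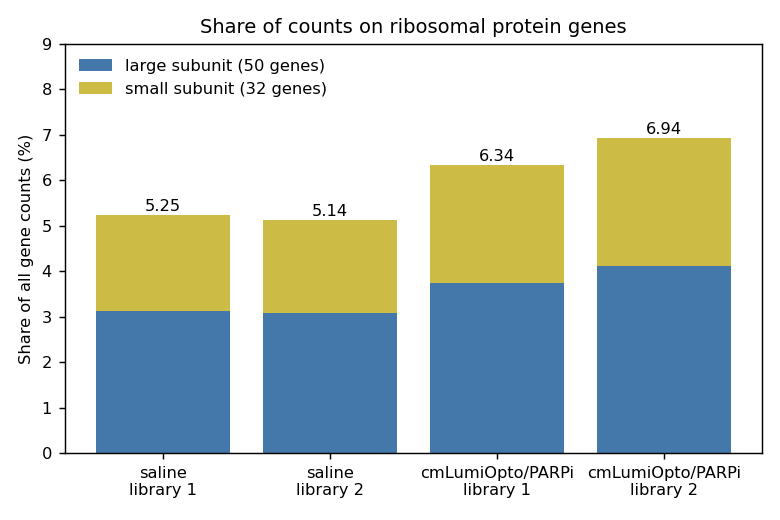
Bars give the share of all gene counts (%) on large subunit (blue) and small subunit (yellow) genes in each library, with the sum printed above. Both treated libraries (6.34% and 6.94%) were above both saline libraries (5.25% and 5.14%).

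Gene by gene the differences were small and mostly in the same direction. Of the 82 genes, 77 passed the filter on low counts and were tested. Log2 fold changes (treated over saline) ran from -0.26 to 1.39 with a median of 0.32 and quartiles of 0.19 and 0.43, against a median of 0.02 over all 15167 genes tested. They were positive for 72 of the 77 genes. The median standard error was 0.16. Neighbours in the order of fold changes had overlapping ranges of 1 standard error, except Rpl35a (1.14 ± 0.26) and Rpl41 (0.69 ± 0.17). None of the 77 passed an adjusted p of 0.05 in edgeR's quasi-likelihood test, as no gene of the table did (0% of all genes), and their lowest adjusted p was 0.138. At an unadjusted p under 0.05, 27 were higher (35.1%, against 9.21% of all genes) and 0 lower (against 12%). Other genes at or above 100 CPM with an mRNA under 1000 bases, given again below, had 36.1% higher and 4.71% lower at the same p. They were not matched further on length or level. Of the 67 tested ribosomal protein genes at or above 100 CPM, 22 were higher at that p (32.8%). DESeq2 called 10 of 81 genes, all higher, against 1.23% of all genes called higher with that tool. These were Rpl9, Rpl27, Rpl35a, Rpl41, Rps14, Rps15, Rps21, Rps27, Rps27l and Rps29.

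In 60 of the 77 genes both treated libraries were above both saline libraries (77.9%, against 27.4% of all genes), in 1 gene, Rps2, both were below (against 27.8%), and in 16 the groups overlapped. The libraries within a group were not equally close. The saline libraries were near each other, with a median absolute difference of 0.06 on the log2 scale and 35 of 77 genes higher in library 1. Treated library 2 was above treated library 1 in 66 of 77 genes, with a median difference of 0.16. The median fold change was 0.23 without treated library 2 and 0.41 without treated library 1, and the count of genes below both saline libraries was 8 without treated library 2.

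**Figure D2:**
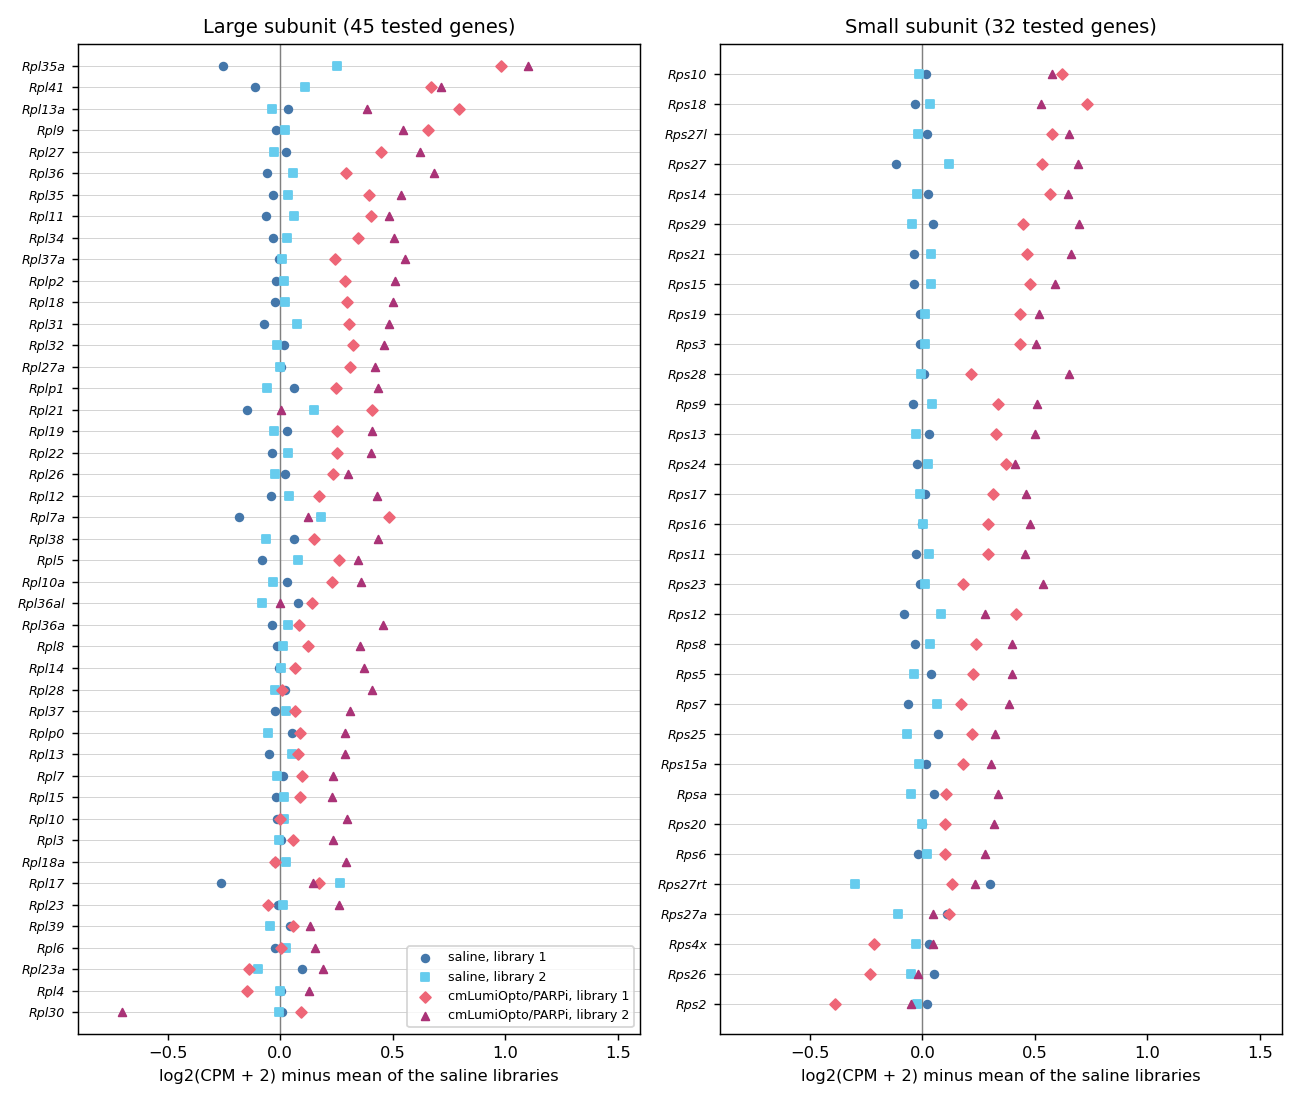
Each row is a tested gene, ordered by fold change within its subunit, and each symbol is a library, placed by its log2(CPM + 2) minus the mean of the saline libraries. Treated libraries lie to the right of the saline libraries in 60 of 77 rows, and library 2 of the treated group (triangles) is the farther one in most rows, with Rpl30 as the clearest exception.

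Short mRNAs in general had higher fold changes, and ribosomal protein mRNAs are short. The principal mRNAs of GENCODE M21 had a median length of 681 bases in the tested ribosomal protein genes and 2599 bases over all tested genes, and 69 of the 77 fell in the shortest when all tested genes were split into 5 equal classes of mRNA length. The other genes of that class (2939 genes) had a median log2 fold change of 0.33, with 51.3% of them higher in both treated libraries and 22.2% higher at an unadjusted p under 0.05. The median fell by steps to -0.31 in the longest class. Other genes at or above 100 CPM with an mRNA under 1000 bases (191 genes) had a median of 0.31, 62.3% higher in both treated libraries and 36.1% higher at an unadjusted p under 0.05. On this last measure the ribosomal protein genes (35.1%) were near these short genes. After a smooth trend on mRNA length and expression level was taken out, the median of the ribosomal protein genes was 0.07, with 51 genes above the trend and 26 below it. With the gene length given in the deposited table, which joins all exons, it was 0.16. Among the 77 genes the fold change also went down with mRNA length (Spearman's rho -0.44 across genes, which share the same 4 libraries and are not independent replicates).

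**Figure D3:**
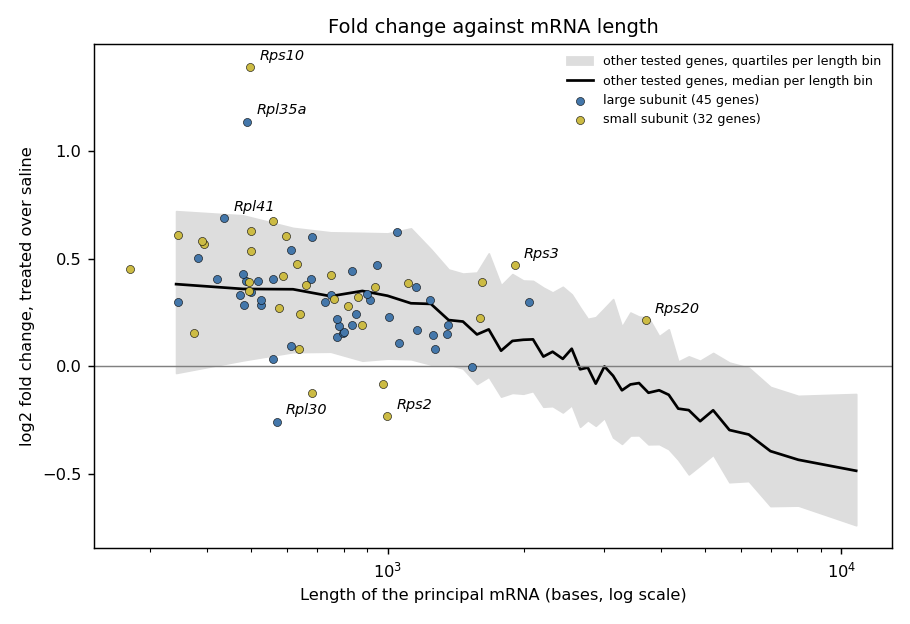
The horizontal axis is the length of the principal mRNA in bases (log scale) and the vertical axis the log2 fold change, treated over saline. Points are the 77 tested ribosomal protein genes by subunit, the line and band are the median and quartiles of all other tested genes in 40 length bins. Most points lie inside the band, and the line goes down from the short to the long mRNAs.

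Markers of other cells differed between the groups beside these values. Of the 8 alveolar type 2 markers, 7 were higher in both treated libraries and 1 (Abca3) was lower, and all 8 airway markers were higher, beside 27.4% of all genes higher and 27.8% lower. Endothelial markers summed to 433 to 542 CPM in saline and 437 to 796 CPM after treatment (2 of 8 without overlap, both higher). T cell markers summed to 21.5 to 56.3 and 34.6 to 113 CPM (1 of 8 higher), B cell markers to 8.25 to 53.2 and 35.8 to 61.9 CPM (3 of 7 tested higher), and neutrophil markers to 603 to 1311 and 807 to 1590 CPM (1 of 8 higher and 1 lower). Cardiac muscle markers summed to 92.7 to 102 and 67.9 to 157 CPM, with 3 of 4 tested markers higher. Most of the sum was Tnnt2 (96.5, 89.9, 59.6 and 144 CPM), whose groups overlapped. The 3 higher markers reached at most 4.21 CPM in any library, and Nppa had 0, 0, 0 and 2 counts. Proliferation genes summed to 1230 to 1262 and 942 to 1187 CPM, with 2 of 8 higher and 3 lower. Within the treated group the alveolar and airway sums were higher in library 1, whereas ribosomal protein genes were mostly higher in library 2. The mitochondrial chromosome held 1.13% and 1.17% of counts in saline and 2.20% and 1.34% after treatment. The part of these cells in the ribosomal protein values was not tested.

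The large subunit holds the peptidyl transferase centre and the exit tunnel. Its 45 tested genes had a median log2 fold change of 0.30, with 33 higher in both treated libraries (73.3%) and 0 lower. The shares were 27.4% and 27.8% over all genes, and 62.3% and 8.90% over the other short genes at or above 100 CPM. Rpl41, which encodes one of the smallest known proteins, had 18975 and 20375 counts in saline and 35557 and 35080 after treatment. At 1289 ± 140 and 2079 ± 45 CPM (SD, n = 2 each) it was 0.69 ± 0.17 (SE) higher on the log2 scale (adjusted p = 0.145, edgeR), and its groups were far apart. Rpl36, an eL36 protein of the subunit surface, had 340, 368, 434 and 570 CPM in the order saline 1, saline 2, treated 1 and treated 2 (log2 fold change 0.50 ± 0.18, adjusted p = 0.205). Its treated libraries differed from each other more than the lower one differed from saline.

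At the other end were Rpl4 and Rpl30. Rpl4, a protein of the exit tunnel, had 1751, 1743, 1575 and 1907 CPM, and its treated libraries lay on either side of the saline pair (log2 fold change -0.01 ± 0.18). Rpl30 had 103, 102, 110 and 62.3 CPM, so that its fold change of -0.26 ± 0.27 rested on treated library 2 and was 0.07 without that library. Rpl30 is among the genes whose reads were mostly on copies, as given below.

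The small subunit holds the decoding centre and binds the mRNA. Its 32 tested genes had a median log2 fold change of 0.38, with 27 higher in both treated libraries (84.4%) and 1 lower (3.12%), beside the same shares of 27.4% and 27.8% over all genes and 62.3% and 8.90% over the other short genes. The median was 0.08 lower in the large than in the small subunit, and this difference was 0.05 without treated library 2, 0.10 after the trend on length was taken out. Large subunit counts were 148% and 152% of small subunit counts in saline and 145% and 147% after treatment, without overlap (exact two-sided permutation p = 0.333, the smallest possible). Small subunit mRNAs were also the shorter ones, with a median of 638.5 against 772 bases.

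Rps15, of the decoding head, had 643 and 679 CPM in saline and 921 and 994 CPM after treatment (log2 fold change 0.53 ± 0.15, adjusted p = 0.160), and the groups did not overlap. Rps26, which lies at the mRNA exit, had 838, 780, 688 and 799 CPM (-0.12 ± 0.16), with treated library 2 between the saline libraries. Rps4x, encoded on the X chromosome, had 1832, 1764, 1546 and 1854 CPM (-0.08 ± 0.18), again with overlap. Under upper quartile normalization, which raised the median of all genes by 0.11, Rpl4 and Rps4x came to 0.10 and 0.02.

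Levels can be compared between genes only per length. On the TPM scale (counts per base, scaled to a sum of 1e6) with the deposited gene length, the 5 highest means over the 4 libraries were Rplp1 (7748), Rpl41 (4119), Rps15 (3679), Rpl36 (3202) and Rps4x (3105). With the length of the principal mRNA they were Rpl41 (6887), Rplp1 (4846), Rps9 (3761), Rpl13 (3420) and Rps4x (3247). The order thus depended on the length used, with Rplp1, Rpl41 and Rps4x in both. Reads counted on copies, described below, were left out of these levels.

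The stalk proteins recruit elongation factors to the ribosome. Rplp0, which anchors the stalk, had 1671 and 1550 CPM in saline and 1710 and 1965 CPM after treatment (log2 fold change 0.19 ± 0.18, adjusted p = 0.560). Rplp1 had 1234 and 1137 against 1407 and 1603 CPM (0.34 ± 0.17, adjusted p = 0.300). Rplp2 had 469 and 480 against 579 and 677 CPM (0.40 ± 0.16, adjusted p = 0.223). All 3 had groups that did not overlap, and the ranges of 1 standard error around their fold changes overlapped. Rpsa, the 40S protein also described as a laminin receptor, had the most reads on its own row, at 2558 and 2383 against 2654 and 3120 CPM (0.23 ± 0.19, adjusted p = 0.515). With reads counted on copies added, as described below, Rplp0 was higher, at 3323, 3182, 3569 and 4040 CPM. Rpsa then had 2721, 2528, 2847 and 3322 CPM.

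Several ribosomal proteins have roles outside the ribosome. Rpl5 and Rpl11, which with 5S rRNA bind the p53 ubiquitin ligase MDM2, had log2 fold changes of 0.30 ± 0.17 and 0.44 ± 0.15. Rpl5 had 1343, 1501, 1701 and 1803 CPM and Rpl11 had 611, 667, 845 and 894 CPM, both without overlap. Rps6, the substrate of the S6 kinases, had 1133, 1166, 1231 and 1395 CPM (0.19 ± 0.16). Rps3, also known as a DNA repair endonuclease, had 1155, 1170, 1573 and 1649 CPM (0.47 ± 0.16, adjusted p = 0.190), with the groups far apart. Rps19 and Rps14 are the genes affected in Diamond-Blackfan anaemia and in the anaemia of the 5q deletion. Rps19 had 556, 566, 759 and 804 CPM (0.48 ± 0.15) and Rps14 had 733, 710, 1069 and 1129 CPM (0.61 ± 0.15, adjusted p = 0.143). Rpl22, required for T cell development, had 405, 425, 494 and 549 CPM (0.33 ± 0.15). Rpl38, needed for the translation of Hox mRNAs, had 262, 240, 279 and 340 CPM (0.30 ± 0.16). Rpl13a, part of an interferon-induced translation silencing complex, had 45.2, 42.9, 77.8 and 58.1 CPM (0.63 ± 0.18, adjusted p = 0.163). Of the windows of its principal mRNA, 55.2% were found in other transcripts, but 1.05% outside the genes that overlap Rpl13a, such as Gm45713. How reads were divided between Rpl13a and these overlapping genes was not tested, so its level and fold change are uncertain. Rps27a, which is made as a fusion with ubiquitin, had 429, 369, 432 and 411 CPM (0.08 ± 0.15). In 9 of these 10 genes both treated libraries were above both saline libraries, and Rps27a was the exception. This share of 90.0% stands beside 77.9% of all tested ribosomal protein genes and 27.4% of all genes.

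The S27 family differed among its members. Rps27 had 370 and 436 CPM in saline and 582 and 650 CPM after treatment (0.61 ± 0.16, adjusted p = 0.148). Rps27l, a p53 target in other systems, had 76.1 and 73.9 against 113 and 119 CPM (0.63 ± 0.12, adjusted p = 0.138). In both, the groups were well apart. Rps27rt had 198 and 130 against 176 and 189 CPM (0.15 ± 0.22), with overlap and with the saline libraries at opposite ends. As Rps27 and Rps27rt share their whole coding sequence, printed above, a read from within it cannot be assigned to either by its letters, and the level of each is uncertain. Rps27l shares no 100-base window with another gene.

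Of the other paralogues, those known from muscle and testis were near absent. Rpl3l, the muscle form of Rpl3, had 2, 3, 2 and 10 counts, beside 14912, 13637, 16864 and 18223 counts for Rpl3 (0.15 ± 0.16). Rpl39l, a germ cell form, had 3, 2, 1 and 2 counts, beside 10785, 9324, 11844 and 11956 for Rpl39 (0.10 ± 0.15). Rpl10l, also a germ cell form, had 0 counts in all 4 libraries, which allows up to 3 counts or 0.173 to 0.204 CPM per library, while Rpl10 had 20638, 19396, 22685 and 26670 (0.15 ± 0.18). Rpl36al had 11, 6, 14 and 9 counts, and Rpl36a had 5629, 5445, 6668 and 8259 (0.28 ± 0.18). Of the windows of the principal mRNA of Rpl36al, 59.0% were found in other transcripts, and 28.6% outside Gm49383, which overlaps Rpl36al. The copy Rpl36a-ps3 had 24, 24, 39 and 35 counts. How reads were divided between Rpl36al and Gm49383 was not tested, so the level and fold change of Rpl36al are uncertain. Rpl3, Rpl36a and Rpl39 were higher in both treated libraries, whereas treated library 1 of Rpl10 (1306 CPM) lay between its saline libraries (1294 and 1322 CPM).

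For some genes most of the reads were counted on copies. The table held 322 rows named as pseudogenes of Rpl or Rps genes, of which 167 had at least 1 count. Together they took 0.483% and 0.475% of all counts in saline and 0.603% and 0.631% after treatment, which was 8.42%, 8.46%, 8.68% and 8.34% of the combined member and pseudogene counts. The split between genes and pseudogenes as a whole thus did not separate the groups, while single genes were strongly affected. In 6 genes at least 50% of the combined counts were on rows with the gene's own pseudogene name, namely Rps10, Rps2, Rpl21, Rps18, Rpl17 and Rpl35a.

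Rps10 showed the largest fold change of all ribosomal protein genes and the weakest basis for it. Its own row had 15, 13, 43 and 39 counts (log2 fold change 1.39 ± 0.45, adjusted p = 0.183), and its pseudogene rows had 3724, 3475, 4310 and 4549. Together they gave 0.16 ± 0.14. This sum leaves out RPS10-NUDT3, which overlaps Rps10 on the same strand. How reads were divided between these 2 genes was not tested, so the level and fold change of Rps10 are uncertain. Rpl35a had 149, 207, 428 and 448 counts (1.14 ± 0.26, adjusted p = 0.138) and 0.70 ± 0.14 with its pseudogene rows, so that its treated libraries were higher on both. Rps18 had 374, 362, 716 and 591 counts (0.67 ± 0.17, adjusted p = 0.142), and its pseudogene rows 4284, 4135, 7613 and 7995, with 0.74 ± 0.14 for the sum. Rpl35a and Rps18 carry long pyrimidine runs at their starts, as printed above, and Rps10 also carries one, of 13 bases. Rps2, the only gene below saline in both treated libraries, had 354, 315, 281 and 349 counts (-0.23 ± 0.21) beside 14523, 13856, 15519 and 16745 on its pseudogene rows, and the sum gave 0.03 ± 0.16. Rpl17 went from 0.14 alone to 0.47 with its pseudogene rows.

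**Figure D4:**
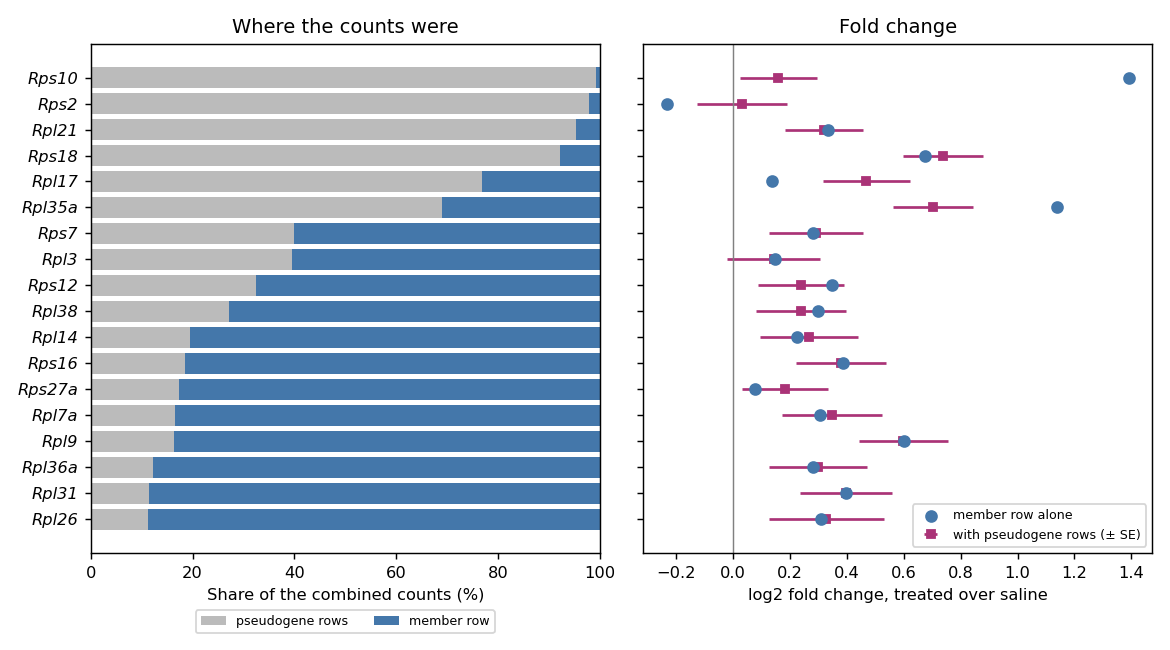
The 18 tested genes with at least 10% of their combined counts on rows carrying their own pseudogene name. The left bars split the combined counts of the 4 libraries (%), and the right points give the log2 fold change, treated over saline, of the gene's row alone (circles) and with the pseudogene rows (squares, ± SE). Rps10 goes from 1.39 to 0.16 and Rps2 from -0.23 to 0.03, while Rps18 stays near 0.7.

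Copies without a pseudogene symbol were found through shared 100-base windows. With these rows included, 12 genes had at least 50% of the combined counts outside their own row. For Rpl21, Rpl29, Rpl7a, Rps2 and Rps12 the list of copies was cut, so their sums may leave some copies out. Genes that overlap a ribosomal protein gene on the same strand were not taken as copies. Rpl26 had 188, 167, 243 and 245 counts, while the processed pseudogene Gm15772 had 15048, 12468, 17188 and 18175. Rpl30 had 1645, 1502, 1903 and 1035 counts beside 6840, 6872, 8120 and 10138 for Gm12191. The combined level of Rpl30 was 539, 578, 585 and 684 CPM, so that treated library 2 was its lowest library on the gene's row and its highest on the sum. Rplp0 shared its reads with Gm8730, which had 22800, 20673, 27542 and 29509 counts. A row can be shared by more than 1 gene, and these sums were not tested. Over 81 genes with any count the median log2 ratio of combined levels was 0.32.

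The 5 genes that failed the filter never exceeded 20 counts in a library. Rpl3l, Rpl10l and Rpl39l are given above. Rpl24 had 2, 8, 6 and 6 counts and Rpl29 had 6, 7, 4 and 20, although both are components of every ribosome. Of their 100-base windows, 80.1% and 62.0% were found in other transcripts. For Rpl29 the processed pseudogene Gm13841 had 3285, 2958, 2790 and 3500 counts, and the combined level was 226, 224, 178 and 233 CPM. For Rpl24 the processed pseudogene Gm9385 had 179, 154, 286 and 211 counts, and the combined level was 14.8, 13.4, 20.3 and 16.8 CPM. This sum leaves out Gm28037, which overlaps Rpl24 on the same strand. The levels of Rpl24 and Rpl29 are therefore not known from their own rows, nor that of Rpl24 from its sum.

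Where the sequence was unique the values were much the same. The 11 tested genes with under 10% of shared windows had a median log2 fold change of 0.33, the 31 with 10% to 50% had 0.33, and the 35 with 50% or more had 0.31. Genes with a pyrimidine run of at least 8 at the start (23 genes) had a median of 0.39 and the others with a window (35 genes) 0.31. With the trend on mRNA length taken out these were 0.10 and 0.06. The 67 tested genes at or above 100 CPM had a median of 0.31 and the 10 below it 0.48.

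Ribosomal proteins and paralogues outside the symbol rule are given one by one, since their list is not reported in full and its count is therefore left out. Fau, which encodes eS30 as a fusion with a ubiquitin-like protein, had 716 and 679 CPM in saline and 1021 and 1053 CPM after treatment (0.57 ± 0.15, adjusted p = 0.146). Rpl22l1, the paralogue of Rpl22, had 61.6, 54.4, 88.2 and 75.4 CPM (0.50 ± 0.15, adjusted p = 0.173). Rpl7l1, the paralogue of Rpl7, was at 0.33 ± 0.14 (adjusted p = 0.258), Rack1, a scaffold on the 40S head, at 0.16 ± 0.17 (adjusted p = 0.616), and Rps3a1 at 0.16 ± 0.16 (adjusted p = 0.607).

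A list of 17 other genes known for TOP mRNAs held mostly translation factors, and their gene starts are not given here. Of the 17, 8 were higher (47.1%, against 27.4% of all genes) and 5 lower (29.4%, against 27.8%) in both treated libraries. At an unadjusted p under 0.05, 1 was higher and 1 lower, and the median was 0.12. Naca, of the nascent chain complex, had 431, 449, 557 and 633 CPM (0.44 ± 0.15, adjusted p = 0.196). Pabpc1, the poly(A)-binding protein, had 2772 and 3005 CPM in saline and 1732 and 2191 CPM after treatment (-0.56 ± 0.20, adjusted p = 0.202).

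Of 35 ribosome biogenesis genes, which act in the nucleolus, 11 were higher (31.4%) and 9 lower (25.7%) in both treated libraries, shares near those of all genes (27.4% and 27.8%). At an unadjusted p under 0.05, 5 were higher (14.3%, against 9.21%) and 2 lower (5.71%, against 12%), and the median was 0.05. Nop10, an H/ACA particle protein, had 28.2 and 26.7 against 56.0 and 46.5 CPM (0.90 ± 0.16, adjusted p = 0.138) and Mrto4, of the stalk assembly, 37.3 and 40.3 against 54.2 and 62.2 CPM (0.58 ± 0.15). Utp20 and Nol6, of the small subunit processome, were at -0.49 ± 0.14 and -0.61 ± 0.19. Of 13 RNA polymerase I genes 6 were higher (46.2%) and 2 lower (15.4%) in both treated libraries, 2 and 2 at an unadjusted p under 0.05, with a median of 0.15. The shared small subunits Polr1c (0.43 ± 0.13) and Polr1d (0.41 ± 0.13) stood against the largest subunit Polr1a, with 91.8 and 75.8 CPM in saline and 52.5 and 55.1 CPM after treatment (-0.64 ± 0.15, adjusted p = 0.138), and the initiation factor Rrn3 (-0.40 ± 0.13).

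Of 14 genes of mTORC1 and LARP1, which control TOP mRNAs, 0 were higher and 9 lower (64.3%, against 27.8% of all genes) in both treated libraries, and 4 were lower at an unadjusted p under 0.05 (28.6%, against 12%), with a median of -0.23. Their mRNAs were long, with a median of 5495 bases, and in the longest of the 5 length classes 56.9% of genes were lower in both treated libraries and 34.2% at that p. Larp1 had 281 and 273 CPM in saline and 181 and 179 CPM after treatment (-0.62 ± 0.13, adjusted p = 0.138). Tsc2, an inhibitor of mTORC1, had 93.4 and 102 against 61.0 and 64.3 CPM (-0.64 ± 0.13, adjusted p = 0.138). Ribosome rescue and quality control genes were 1 higher (10%, against 27.4%) and 5 lower (50%, against 27.8%) of 10 in both treated libraries, with 2 lower at an unadjusted p under 0.05 and a median of -0.24. Among them Ltn1, the ligase of stalled nascent chains, was at -0.67 ± 0.14 and Ascc3 at -0.50 ± 0.15. Of 7 genes of the 5S particle and p53 branch 3 were higher (42.9%) and 1 lower (14.3%) in both treated libraries (median -0.02), with Bax at 0.46 ± 0.14 and Trp53 at -0.29 ± 0.15. The principal mRNAs of Larp1 (6617 bases), Tsc2 (5459), Ltn1 (7743), Ascc3 (7760), Polr1a (9216) and Utp20 (8821) were longer than those of Fau (472 bases), Naca (885), Nop10 (1109), Polr1c (1314), Polr1d (1196) and Bax (867). The part of mRNA length in these lists was not tested.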

How the data were processed

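RNA from 2 saline and 2 cmLumiOpto/PARPi lungs was sequenced after poly(A) selection on an Illumina platform. The authors mapped reads with HISAT2 and deposited raw read counts per gene, with position and gene length; counter and strand setting are not given in the sources used here. The methods name GRCm38 and the processing notes mm39. Only 1 of 82 members had the same position in GENCODE M21 as in the table, so positions and mRNA lengths are from GENCODE M21 (GRCm38). How reads that match several copies were counted is not given, and this bears directly on genes with pseudogenes.

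From the counts, edgeR 4.0.16 was run on all genes (R 4.3.3, TMM, filterByExpr at minimum count 10, quasi-likelihood fit and test with default options, Benjamini-Hochberg adjustment, threshold 0.05), as the methods name edgeR; DESeq2 1.42.0 was an alternative. Standard errors are the absolute log2 fold change over the root of F. CPM use TMM factors; log2 CPM use an offset of 2. The trend on length is a loess (span 0.5) on log2 length and mean log2 CPM. Lists were ribosomal proteins with other symbols, ribosome biogenesis, RNA polymerase I, other TOP mRNAs (mostly translation factors), mTORC1 and LARP1, the 5S particle and p53, ribosome rescue and quality control, and 9 marker lists. Twistnb and Znrd1 of the polymerase list were not found by symbol. Another gene, of the list of ribosomal proteins with other symbols, is not reported here.

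Genes were named by rule: stalk genes and Rpsa, genes failing the filter, the 5 highest TPM, the 5 largest and 5 smallest fold changes, paralogue pairs, 10 genes with extraribosomal roles, and up to 2 genes per list and direction by p. Members and lists were chosen with earlier results of these data known. The labels do not say that libraries with the same number share a mouse or day, and p-values measure the spread between these libraries. Libraries of a group were not duplicates, as their counts differed beyond sampling noise (chi-square per degree of freedom of 26.1 in saline and 44.9 in treated). The methods were tested on simulated data.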

Additional observations from a re-analysis of the deposited data

How the results depend on the processing

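With 2 libraries a group, precision is limited by replicate number and not by depth, and genes with few counts on their own row are limited by both. The count of genes past the adjusted threshold, 0 in the edgeR fit, was 10 with DESeq2 (12.35%, against 3.80% of all genes), 9 with no filter on low counts (11.1%, against 7.86%), and 10 with the replicate block (12.99%, against 12.01%, a share near the background). It stayed at 0 under edgeR without the legacy option, with pseudogene counts added, under the other normalizations, and without any 1 library. The replicate numbers name different mice and were not treated as pairs. Same-numbered libraries deviated together (Spearman's rho 0.32 across genes), and the block raised the calls over all genes from 0 to 1822. The median fold change of the ribosomal protein genes was 0.43 under upper quartile normalization, or 0.32 relative to the shift of all genes, 0.16 with the trend on deposited gene length taken out, and 0.065 with that on mRNA length, the latter an alternative chosen after seeing the data, as was the limit of 100 CPM. Its direction was kept under every alternative run. Large minus small subunit was -0.10 with either length trend and -0.079 to -0.048 without 1 library. The count of genes below saline in both treated libraries, 1, was 0 at or above 100 CPM, 0 under upper quartile normalization, and 2 to 8 without 1 library. The counts above saline and the share of counts kept their direction and size class.

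The named genes include the 5 largest fold changes by rule. Beside the shares of all genes above, 6 named genes passed the threshold with DESeq2, 7 with no filter and 7 with the block, all higher. Others, none past the threshold, reversed sign. With the trend on deposited gene length taken out the values were -0.17 for Rpl36al, -0.10 for Rpl38, -0.15 for Rpl39, -0.10 for Rplp1, -0.063 for Rps27a, -0.26 for Rps27rt and -0.016 for Rps6. With that on mRNA length they were -0.080 for Rpl10, -0.0023 for Rpl22, -0.048 for Rpl36a, -0.16 for Rpl36al, -0.062 for Rpl38, -0.20 for Rpl39, -0.21 for Rps27a, -0.20 for Rps27rt and -0.019 for Rps6. Upper quartile normalization gave 0.10 for Rpl4 and 0.024 for Rps4x, and adding pseudogene counts gave 0.033 for Rps2. Leaving out 1 library gave -0.024 to 0.29 for Rpl10, -0.72 to 0.071 for Rpl30, -0.049 to 0.70 for Rpl36al, -0.17 to 0.13 for Rpl4, -0.040 to 0.18 for Rps27a, -0.13 to 0.47 for Rps27rt and -0.24 to 0.044 for Rps4x. The cause was not tested.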
